A study of Rattus norvegicus with 9 samples.

Results

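This is an account of 9 genes that make, store, take up or break down histamine and serotonin, or that build the proteoglycan on which both amines are held in mast cell (MC) granules. The genes are Hdc, Tph1, Ddc, Slc18a1, Slc18a2, Slc6a4, Hnmt, Srgn and Ndst2. They were chosen by name for their known roles, with earlier results of these data known. All 9 were among the 18006 genes with a value. RNA-seq had been done on 9 samples of the line RBL-2H3 (RBLs), in 3 groups of 3. RBLs come from a basophilic leukemia of the rat and serve as a stand-in for MCs. The DNP samples received 50 ng/mL of IgE against DNP over 12 h and then 100 ng/mL of the antigen DNP-HSA, which crosslinks the IgE on its receptor. The PF samples had the same IgE and antigen after 1 h of pretreatment with PF, an agent that the labels name only by these letters. The stimulation time was 4 h for DNP, whereas for PF replicates 1, 2 and 3 one field of the labels gives 4, 5 and 6 h and another gives 4 h. The Ctrl samples are called untreated in one field while another gives the sensitization for every sample, so it is not settled whether they had IgE. The labels name the tissue as blood, although the source is the cell line, and nothing says that the samples of a group were separate cultures. The p-values therefore measure the spread between these samples, which may be technical.

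Histamine is made from histidine in 1 step by histidine decarboxylase (Hdc), and serotonin from tryptophan in a pair of steps, by tryptophan hydroxylase (Tph1, the rate-limiting enzyme outside the brain) and aromatic L-amino acid decarboxylase (Ddc). Both amines are pumped into granules by vesicular monoamine transporters (Slc18a2 for either amine, Slc18a1 for serotonin) in exchange for protons. Inside the granule they bind the negatively charged sugar chains of serglycin (Srgn), and release from the granule follows crosslinking of the IgE receptor. Rodent MCs are known for holding serotonin as well as histamine.

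Levels are given in FPKM, the fragments of a gene divided by its length and by the total mapped, so that different genes can be set side by side. The heading of the values names no unit, and they were read as FPKM from their form. The sums of FPKM were 573023 to 591539 in the Ctrl and DNP samples and 610206 to 630069 in the PF samples. Depth in reads is unknown, since FPKM holds no counts, so that only the 3 replicates show how precise a value is. Of 17 MC and basophil markers, 15 had a value, and the IgE receptor genes Fcer1a, Ms4a2 and Fcer1g lay between 409.9 and 824 FPKM in every sample. The whole list summed to 3414 to 3478 FPKM in Ctrl, 3187 to 3209 in DNP and 3312 to 3343 in PF. Of markers of other cells that hold these amines, the platelet list summed to 697 to 889 FPKM, most of it Pf4 (660 to 840 FPKM). Of its 5 genes, Ppbp was at 22.03, 39.4 and 37.6 FPKM in Ctrl, DNP and PF, Itga2b at 11.1, 7.24 and 7.06, Gp1ba at 3.04, 1.93 and 2.71, and Gp9 at most at 0.5. By the test given below, in DNP vs Ctrl 1 of the 4 tested was higher (Ppbp) and 2 were lower (Itga2b and Gp1ba). Over all genes tested in DNP vs Ctrl, 14.7% were higher and 14.4% lower. The neuronal list summed to 8.74 to 16.0 FPKM, mostly Syp. Neutrophil, macrophage, B cell, erythroid and fibroblast lists summed to at most 2.12 FPKM and the T cell list to 8.3 to 10.99 FPKM. Only 1 of 5 neutrophil, 4 of 5 macrophage and 3 of 4 B cell genes had a value, so these sums leave genes out. By its sum the MC list was lower in DNP than in Ctrl. Of its 15 genes tested in that comparison, 2 were higher, 7 were lower and 6 did not pass. Mcpt2, for example, was at 199.6 FPKM in Ctrl and 127.4 in DNP, and Kit at 283 and 238. Mitf went the other way, at 16.8 FPKM in Ctrl and 24.9 in DNP. Syp was lower in DNP and PF (14.2, 9.13 and 9.01 FPKM). The part of these MC, platelet and neuronal markers in the results was not tested. The DNP samples carried the marks of stimulation, with Egr1 at 3.65 ± 0.329 FPKM in Ctrl and 169 ± 9.59 in DNP (SD, n = 3), and the cytokine gene Il4 at 2.33 ± 0.118 and 12.3 ± 0.514 FPKM. In PF, Egr1 was at 226 ± 10.7 and Il4 at 3.49 ± 0.856 FPKM.

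The bases just upstream of 4 of the genes are shown to let a reader compare the gene that fell in both steps of the design (Tph1), the gene of the 9 with the largest difference in PF (Ndst2), the histamine enzyme (Hdc) and the main granule transporter, whose groups overlapped (Slc18a2). Each run is the 250 bases before the gene start of RefSeq on rat build GRCr8, 5′ to 3′ on the gene's strand, whereas the expression values were made on rn6. Capitals mark matches on either strand to the letters of binding motifs. These are TGANTCA for AP-1 and TGACGTCA for a cAMP response element (CRE). EGR factors are stood for by GCGTGGGCG, and a GC box by GGGCGG. The others are CCAAT for the box of that name, TATAA for a TATA box, and the letters GATAA for a GATA site. The windows are chr1:106314629-106314878 (minus strand) for Tph1, chr3:134318705-134318954 (minus strand) for Hdc, chr15:3612525-3612774 (plus strand) for Ndst2 and chr1:268399771-268400020 (plus strand) for Slc18a2.
Tph1: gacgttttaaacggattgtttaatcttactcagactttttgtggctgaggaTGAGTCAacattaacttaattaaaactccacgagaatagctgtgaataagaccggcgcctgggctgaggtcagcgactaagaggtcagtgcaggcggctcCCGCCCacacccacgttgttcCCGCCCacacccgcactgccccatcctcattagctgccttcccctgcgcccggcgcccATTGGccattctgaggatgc
Hdc: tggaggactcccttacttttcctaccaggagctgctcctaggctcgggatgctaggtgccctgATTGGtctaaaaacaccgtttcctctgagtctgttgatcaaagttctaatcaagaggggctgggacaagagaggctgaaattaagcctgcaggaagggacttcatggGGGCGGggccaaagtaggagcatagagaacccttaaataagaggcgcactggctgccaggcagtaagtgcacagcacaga
Ndst2: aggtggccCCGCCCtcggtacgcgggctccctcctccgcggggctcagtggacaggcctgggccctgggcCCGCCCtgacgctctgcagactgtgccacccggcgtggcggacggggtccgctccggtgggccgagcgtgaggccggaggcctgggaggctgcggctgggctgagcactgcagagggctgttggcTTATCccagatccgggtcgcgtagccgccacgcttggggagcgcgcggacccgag
Slc18a2: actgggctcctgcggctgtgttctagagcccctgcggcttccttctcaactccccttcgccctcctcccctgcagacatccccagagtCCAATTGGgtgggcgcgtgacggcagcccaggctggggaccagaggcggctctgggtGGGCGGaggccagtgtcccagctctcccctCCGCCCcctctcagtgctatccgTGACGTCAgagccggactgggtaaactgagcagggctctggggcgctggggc

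Position -1 is the last base before the start. The Tph1 window held 1 AP-1 match, TGAGTCA at -199 to -193, a sequence that 6.34% of 33469 rat windows of this length hold in some form. It also held 2 GC boxes (-99 to -94 and -78 to -73) and a CCAAT box at -20 to -16, which are common, being found in 30.5% and 34% of windows. In the Hdc window a CCAAT box lay at -187 to -183 and a GC box at -80 to -75. The Slc18a2 window held a full CRE, TGACGTCA, at -52 to -45, a match in 1.59% of windows, and CCAAT boxes on both strands at -162 to -155 that overlap each other and an E-box at -161 to -156. The Ndst2 window was the richest in G and C (75.2%, with 27 CpG against a median of 51.2% and 5 over all windows) and held 2 GC boxes and 1 GATA match. None of the 4 windows held the EGR letters, which 0.478% of windows do, or TATAA, which 24% do, and GATAA was in 23.5% of all windows. A window was found for 7 of the 9 genes, with 3 for Ddc, 1 of which held an AP-1 match (TGAATCA at -163 to -157). E-box letters (CANNTG, in 65.5% of windows, not capitalised) were found in windows of Ddc, Slc18a2 and Srgn. These are letter matches, and which start these cells use was not measured. The promoters of Slc18a1 and Slc6a4 were not analysed here.

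Of the 9 genes, 7 reached 1 FPKM and were tested. By level they spanned from Srgn, at rank 13 to 20 of all genes with a value, to Slc18a1 and Ndst2 in the middle of the range. In Ctrl the order was Srgn (2780.4 FPKM), Tph1 (341), Hdc (229), Slc18a2 (122), Ddc (66.5), Ndst2 (14.3) and Slc18a1 (9.39), with no overlap between the samples of neighbours. Slc6a4 lay at 0.147 FPKM and Hnmt was listed at 0. The order changed at 2 places. Tph1 and Hdc overlapped in DNP (255 to 264 and 249.6 to 261 FPKM) and in PF Hdc was the higher of the pair, and Ndst2 dropped below Slc18a1 in PF. Together the 9 genes made up 0.567 to 0.625% of the summed FPKM of a sample, of which Srgn alone was 0.454 to 0.495%.

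**Figure D1:**
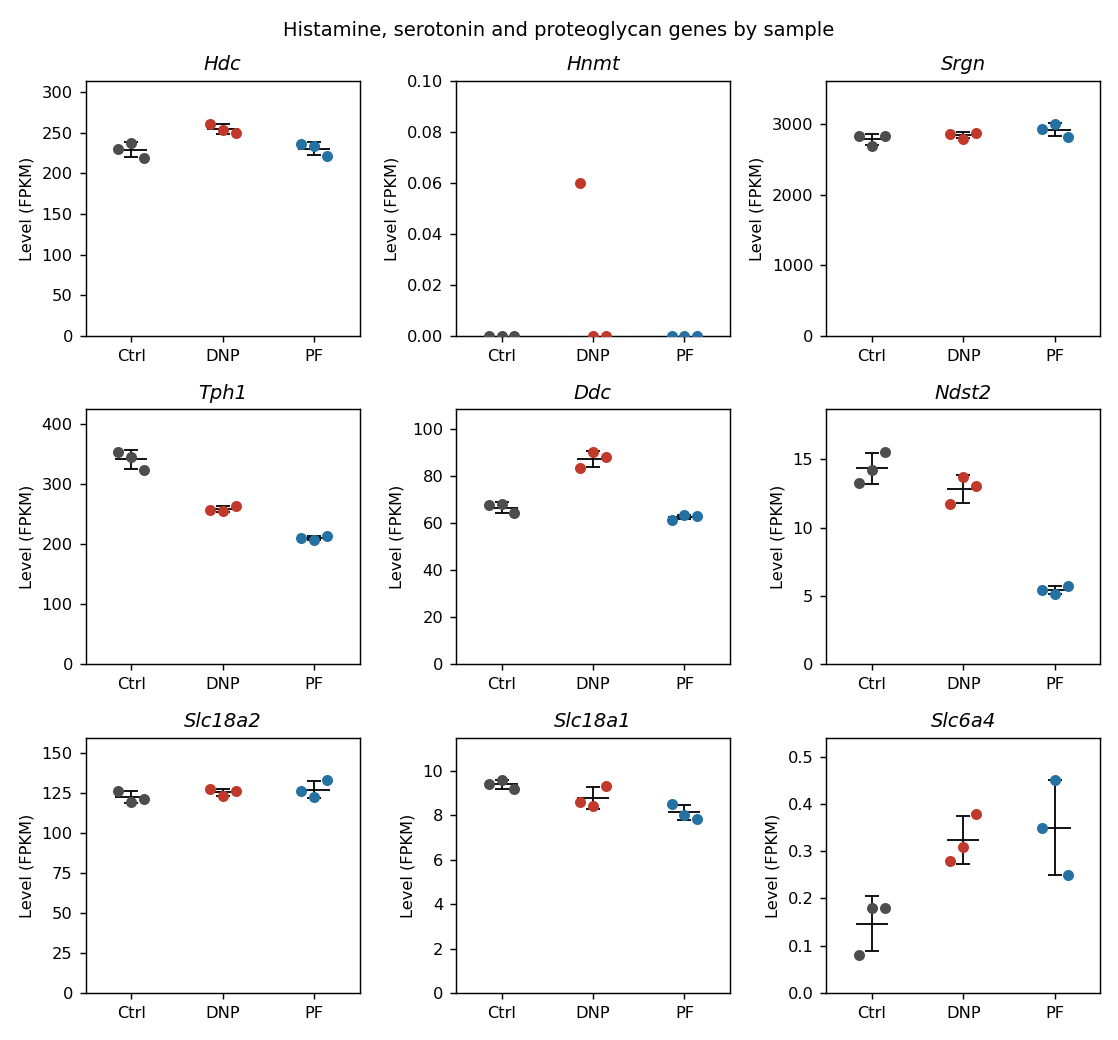
Level of each of the 9 genes in FPKM (vertical axes, from 0 and scaled per gene) in the 3 Ctrl, 3 DNP and 3 PF samples. Points are samples, lines are the mean and bars the SD, with no mean or SD drawn for Hnmt. Tph1 steps down from Ctrl to DNP to PF, Ddc stands up in DNP only, and the 3 Ndst2 points in PF (5.15 to 5.73 FPKM) lie under all 6 others.

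In DNP vs Ctrl, Hdc rose slightly, Ddc rose more, and Tph1 fell. Since Ctrl may have had no IgE, the effect of antigen alone cannot be told from that of IgE with antigen. Fold changes are on the scale of log2(FPKM + 1), which understates changes of genes of few FPKM, and a gene is called where limma gave it a Benjamini-Hochberg adjusted p, over all genes tested, of 0.05 or less. Of the 7 genes tested in DNP vs Ctrl, 2 rose and 1 fell, where 14.7% of 10392 genes rose and 14.4% fell. The median of the 7 log2 fold changes was 0.03, against -0.01 over all genes. Samples did not overlap between the groups for these 3 genes, which was so for 45.8% of all genes.

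In PF vs DNP, 4 of 7 fell (Hdc, Tph1, Ddc and Ndst2) and the other 3 did not pass the test, where 30.7% of 10329 genes fell and 18.1% rose. The same 4 did not overlap between groups, which is close to the 57.6% of all genes of which that was true. The median of the 7 was -0.14, against -0.04 over all genes. Against Ctrl, 3 of 7 fell in PF (Tph1, Slc18a1 and Ndst2) and the other 4 did not pass, where 34.6% of 10361 genes fell and 23.1% rose. With median ratio scaling 2 of the 7 rose (Slc18a2 and Srgn) and 2 fell (Tph1 and Ndst2), where 3142 of all 10342 genes rose and 3012 fell. With the mean of the sums 4 fell, where 4316 of all 10343 genes did. Tph1, Slc18a1, Ndst2 and Ddc did not overlap between PF and Ctrl, which was so for 64.8% of all genes, and the median of the 7 was -0.09, against -0.05. The 3 comparisons share their groups of samples pairwise and are not independent of each other.

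The split between higher and lower calls over all genes moved with scaling in PF. Of the genes called in PF vs DNP, 37.1% were higher as deposited, 51.5% with median ratio scaling and 16.8% after scaling samples to the mean of their sums. In PF vs Ctrl these shares were 40.0%, 51.1% and 26.7%. The median over all genes ran from -0.13 (mean of the sums) to 0.02 (median ratios) in PF vs DNP and from -0.12 to 0.01 in PF vs Ctrl. Differences of about 0.1 in PF are therefore within reach of the scaling, whereas those of Tph1, Ndst2 and, against DNP, Ddc were called under each.

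**Figure D2:**
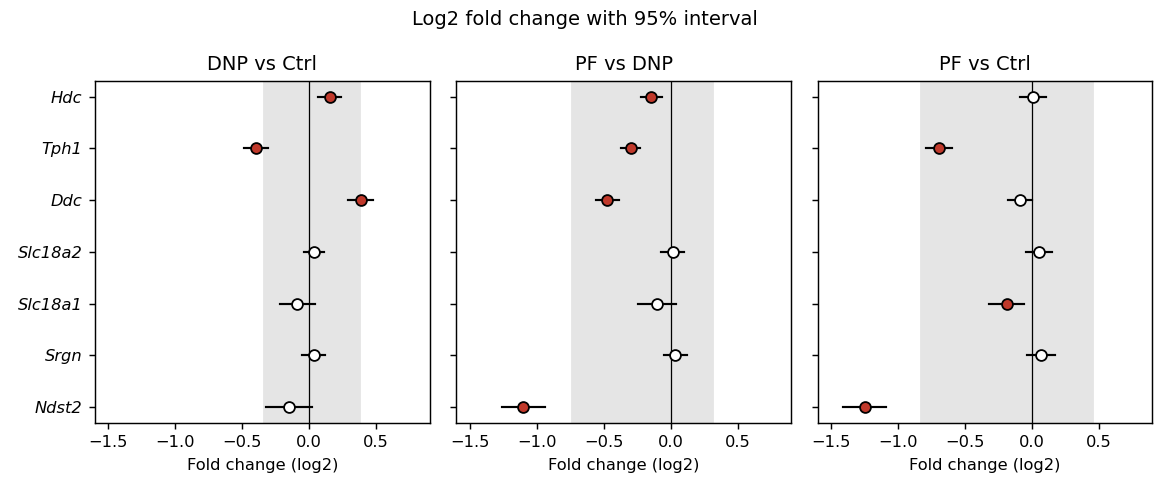
Log2 fold change of log2(FPKM + 1) for the 7 genes tested, in DNP vs Ctrl, PF vs DNP and PF vs Ctrl. Points are limma estimates with 95% intervals, filled where called, and the grey band holds 90% of all genes tested (-0.83 to 0.46 in PF vs Ctrl). Ndst2 lies below the band in both PF comparisons, at -1.10 and -1.25.

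Hdc makes histamine. Its levels were 230.1, 238 and 219 FPKM in Ctrl replicates 1 to 3, 261, 253 and 249.6 FPKM in DNP, and 236, 234 and 222 FPKM in PF. All DNP samples were above all others, and Ctrl and PF overlapped. The means were 229 ± 9.34, 255 ± 5.99 and 230.4 ± 7.48 FPKM (SD, n = 3). Hdc rose by 0.15 on the log2 scale in DNP vs Ctrl (SE 0.0383, adjusted p = 0.0188) and fell by 0.14 in PF vs DNP (SE 0.0349, adjusted p = 0.00859). In PF vs Ctrl the log2 fold change was 0.01, with a 95% interval of -0.09 to 0.11. The call in DNP vs Ctrl was lost without DNP replicate 1 (log2 fold change 0.13, adjusted p = 0.0699) and without DNP replicate 2 (0.16, adjusted p = 0.0520). The call in PF vs DNP was lost with median ratio scaling (-0.08, adjusted p = 0.104) and with only the PF sample of 4 h (-0.11, adjusted p = 0.155).

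Tph1, which commits tryptophan to serotonin, was the only one of the 7 tested to be called in all 3 comparisons. The share of all genes called in all 3 was not computed, so this is not read as particular to Tph1. It measured 353, 346 and 324 FPKM in Ctrl, 257, 255 and 264 FPKM in DNP and 209.8, 207 and 214 FPKM in PF. The 3 groups were fully separate, with PF lowest and Ctrl highest. The means were 341 ± 15.1, 259 ± 4.99 and 210.1 ± 3.66 FPKM, so that DNP stood at 0.758 of Ctrl and PF at 0.813 of DNP. The log2 fold changes were -0.40 in DNP vs Ctrl (SE 0.0390, adjusted p = 0.000344), -0.30 in PF vs DNP (SE 0.0304, adjusted p = 7.10e-05) and -0.70 in PF vs Ctrl (SE 0.0413, adjusted p = 4.36e-06). Each was called under every alternative run. In a bulk sample, fewer cells that express a gene and less RNA per cell cannot be told apart.

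Ddc carries out the step after Tph1 and also acts on other aromatic amino acids. It measured 67.5, 68.05 and 64.05 FPKM in Ctrl, 83.5, 90.1 and 87.8 FPKM in DNP and 61.5, 63.4 and 62.8 FPKM in PF. The DNP samples were above all others, and the PF samples lay just under the lowest Ctrl sample. Ddc rose in DNP vs Ctrl to 1.31 times the mean (log2 fold change 0.38, SE 0.0411, adjusted p = 0.000502) and fell in PF vs DNP to 0.718 of it (-0.47, SE 0.0374, adjusted p = 1.60e-05). PF and Ctrl were not called apart (log2 fold change -0.09, SE 0.0393, adjusted p = 0.0851), although scaling to the mean of the sums gave a call (-0.17, adjusted p = 0.00723). The successive enzymes of serotonin synthesis thus moved in opposite directions between Ctrl and DNP and in the same direction between DNP and PF.

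A ratio of 2 genes within a sample does not depend on how samples are scaled. Tph1 stood to Hdc as 1.54, 1.45 and 1.48 to 1 in Ctrl, as 0.983, 1.01 and 1.06 in DNP and as 0.890, 0.884 and 0.964 in PF. The means were 1.49 ± 0.0418, 1.02 ± 0.0388 and 0.913 ± 0.0447. Tph1 exceeded Hdc in each Ctrl sample and lay under it in each PF sample. The ratio of Tph1 to Ddc was 5.12 ± 0.0948 in Ctrl, 2.97 ± 0.128 in DNP and 3.36 ± 0.0856 in PF. The samples of the 3 groups did not overlap for either ratio, and the two-sided exact permutation p was 0.1 in each comparison, the smallest that 3 samples against 3 can give.

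**Figure D3:**
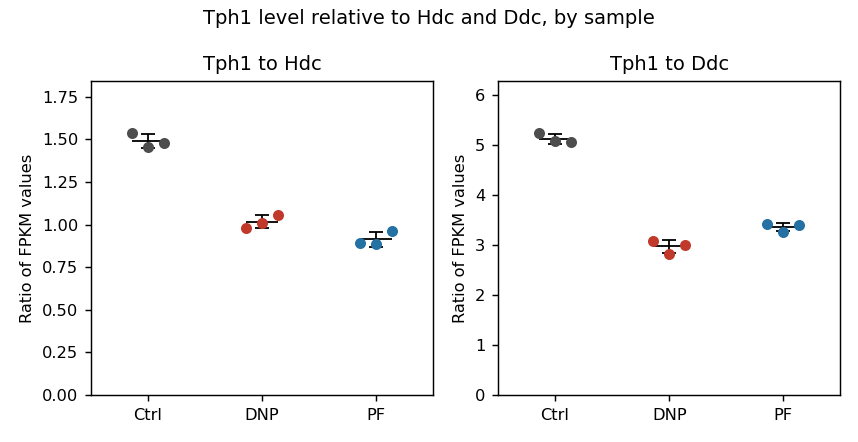
Ratio of Tph1 to Hdc and of Tph1 to Ddc FPKM (vertical axes, from 0) in each of the 3 Ctrl, 3 DNP and 3 PF samples. Points are samples, lines the mean and bars the SD. Tph1 to Hdc goes down from 1.49 to 1.02 to 0.913, while Tph1 to Ddc is lowest in DNP (2.97).

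By the pattern over the 9 samples, the genes most like Tph1 were Adam19, Tp53inp2 and Tob2 (Pearson r of 0.993, 0.993 and 0.992 on log2(FPKM + 1), among 1938 genes with at least 1 FPKM throughout and group means at least 0.5 apart). These samples form 3 groups, so that r mostly reflects the order and spacing of the group means. Tob2, for example, went from 20.5 FPKM in Ctrl to 13.2 in DNP and 8.82 in PF.

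The vesicular transporters showed small differences. Slc18a2 (VMAT2), which loads histamine and serotonin into granules, measured 127, 119.7 and 121 FPKM in Ctrl, 127, 123 and 126 FPKM in DNP and 126, 122 and 133 FPKM in PF. The 3 groups overlapped throughout. Its log2 fold changes were 0.04 in DNP vs Ctrl (95% interval -0.04 to 0.11), 0.02 in PF vs DNP (-0.07 to 0.10) and 0.05 in PF vs Ctrl (-0.05 to 0.15), none of them called. With median ratio scaling the last was called as higher (0.12, adjusted p = 0.0338).

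Slc18a1 (VMAT1), the form typical of neuroendocrine cells, was at 9.41, 9.57 and 9.19 FPKM in Ctrl, 8.58, 8.43 and 9.34 in DNP and 8.51, 8.02 and 7.85 in PF. Neighbouring groups overlapped, while all PF samples lay under all Ctrl samples. It was lower in PF vs Ctrl by a log2 fold change of -0.19 (SE 0.0575, adjusted p = 0.0215) and was not called in DNP vs Ctrl (-0.09, adjusted p = 0.291) or PF vs DNP (-0.10, adjusted p = 0.216). The PF vs Ctrl call was lost with median ratio scaling (-0.13, adjusted p = 0.0844), without Ctrl replicate 1 or 2 or PF replicate 2 or 3 (adjusted p of 0.0549, 0.0631, 0.0561 and 0.0662) and with only the PF sample of 4 h (-0.13, adjusted p = 0.242). Scaling to the mean of the sums gave a call in PF vs DNP (-0.19, adjusted p = 0.0354). Slc18a2 exceeded Slc18a1 by 13.0 ± 0.487 times in Ctrl, 14.3 ± 0.724 in DNP and 15.7 ± 1.11 in PF (exact permutation p = 0.2 for PF vs DNP, and 0.1 when either was set against Ctrl).

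Slc6a4, the serotonin transporter of the cell surface, was listed at 0.08, 0.18 and 0.18 FPKM in Ctrl, 0.28, 0.31 and 0.38 in DNP and 0.35, 0.45 and 0.25 in PF. Every sample of DNP and PF was above every Ctrl sample, but all 9 values were under the 1 FPKM minimum and the gene was not tested. Without that minimum, limma gave a log2 fold change of 0.21 in DNP vs Ctrl (adjusted p = 0.0391), 0.23 in PF vs Ctrl (adjusted p = 0.0311) and 0.03 in PF vs DNP (adjusted p = 0.797). The exact permutation p was 0.1, 0.1 and 0.7. The reads behind such values cannot be counted from FPKM.

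Hnmt, which inactivates histamine by methylation, was listed at 0 in 8 samples and at 0.06 FPKM in DNP replicate 1. It was not tested. Of 76 ribosomal protein genes with a value, 1 was at 0 in at least 1 sample and none in all samples. Whether the listed 0 of Hnmt is a true absence or a failed estimate was not tested.

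Srgn, the core protein that carries the granule's sugar chains, was among the most abundant transcripts in all samples. It measured 2827, 2688 and 2826 FPKM in Ctrl, 2862, 2791 and 2876 FPKM in DNP and 2921, 3004 and 2817 FPKM in PF. The groups overlapped, with means of 2780.4 ± 79.6, 2843 ± 45.6 and 2914 ± 93.6 FPKM. The log2 fold changes were 0.03 in DNP vs Ctrl (95% interval -0.06 to 0.12), 0.04 in PF vs DNP (-0.05 to 0.12) and 0.07 in PF vs Ctrl (-0.03 to 0.17), none called as deposited. Median ratio scaling gave a call in PF vs Ctrl (0.14, adjusted p = 0.0393).

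Ndst2 removes acetyl groups from the growing heparan chain and adds sulfate in their place, a step that MCs need to make heparin. Its levels were 13.27, 14.22 and 15.54 FPKM in Ctrl, 11.7, 13.68 and 13.07 FPKM in DNP and 5.44, 5.15 and 5.73 FPKM in PF. Ctrl and DNP overlapped, and each PF sample was below 6 FPKM. The means were 14.3 ± 1.14, 12.8 ± 1.01 and 5.44 ± 0.290 FPKM, which put PF at 0.424 of DNP and 0.379 of Ctrl. Its log2 fold changes were -1.10 in PF vs DNP (SE 0.0713, adjusted p = 4.89e-06) and -1.25 in PF vs Ctrl (SE 0.0719, adjusted p = 3.73e-06), at rank 165 and 123 from the lowest of all genes. Both calls held under each alternative run. In DNP vs Ctrl it was not called (-0.15, 95% interval -0.32 to 0.02, adjusted p = 0.163).

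Against Srgn, the protein that its chains are built on, Ndst2 stood at a ratio of 0.00516 in Ctrl, 0.00451 in DNP and 0.00187 in PF. Against Ndst3, another enzyme of the same step, it stood at 2.83 ± 0.0524 in Ctrl, 2.75 ± 0.338 in DNP and 1.45 ± 0.0654 in PF, with an exact permutation p of 0.1 for PF vs DNP and 0.9 for DNP vs Ctrl. Ndst3 itself fell by 0.26 on the log2 scale in PF vs DNP (adjusted p = 0.0274), from 4.68 to 3.75 FPKM. The genes most like Ndst2 over the 9 samples were Nrros, Zfp46 and Mllt6 (Pearson r of 0.995, 0.994 and 0.994, by the same rule). Nrros was at 40.8 FPKM in Ctrl, 37.9 in DNP and 16.5 in PF. For Hdc, Ddc, Slc18a1, Slc18a2 and Srgn no like genes were sought, because their group means differed by less than 0.5.

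Of 49 other genes that build and sulfate such chains, 45 had a value. In DNP vs Ctrl, 10 of 34 tested rose and 3 fell, where 14.7% of all genes rose and 14.4% fell (median log2 fold change 0.00, against -0.01). In PF vs DNP, 2 of 33 rose and 15 fell, against 18.1% and 30.7% of all genes (median -0.22, against -0.04). In PF vs Ctrl 3 of 32 rose and 13 fell, against 23.1% and 34.6% (median -0.11, against -0.05), so that the share of lower calls was near that of all genes. With median ratio scaling the counts in PF vs DNP were 4 and 14, where 2758 of all 10318 genes rose and 2600 fell. With the mean of the sums 20 fell, where 4302 of all 10320 genes did.

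Chst12, which sulfates chondroitin at carbon 4, was at 59.1 ± 0.703 FPKM in Ctrl, 65.1 ± 2.42 in DNP and 28.3 ± 1.35 in PF. In PF vs DNP its log2 fold change was -1.17 (adjusted p = 4.79e-07), close to that of Ndst2. Hs3st1, which adds the sulfate that gives heparan its antithrombin site, was at 42.0 ± 1.64 FPKM in Ctrl, 83.1 ± 1.19 in DNP and 53.2 ± 2.27 in PF. It rose by 0.97 on the log2 scale in DNP vs Ctrl (adjusted p = 2.35e-06) and was lower in PF vs DNP by -0.64 (adjusted p = 3.62e-06), with PF still above Ctrl (0.33, adjusted p = 0.000464). Csgalnact1, which starts chondroitin chains, was also highest in DNP, at 0.950, 1.71 and 0.540 FPKM in Ctrl, DNP and PF, but its PF samples lay under its Ctrl samples, a pair not tested for this gene because of its low level (0.48 in DNP vs Ctrl, adjusted p = 0.0117, and -0.82 in PF vs DNP, adjusted p = 0.000274).

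The 6-O- and 3-O-sulfotransferases Hs6st1 and Hs3st3b1 were lower in PF vs DNP by -0.62 and -0.82 (adjusted p of 0.00167 and 0.00138) and were near 0 in DNP vs Ctrl (0.04 and 0.00, not called). Ust, the uronyl 2-sulfotransferase, fell in DNP vs Ctrl by 0.54 on the log2 scale (adjusted p = 0.00390), from 4.23 to 2.60 FPKM. B4galt7, which makes the linker that joins chain to core, rose in DNP vs Ctrl by 0.57 (adjusted p = 0.000670) and stayed there in PF (9.76 and 9.66 FPKM). Chpf2 and Chst14 were lower in PF vs Ctrl by -0.51 and -0.53 (adjusted p of 0.000782 and 0.00317). Papss1, which makes the sulfate donor and was the most abundant of the list, was not called, at 167, 160 and 166 FPKM.

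**Figure D4:**
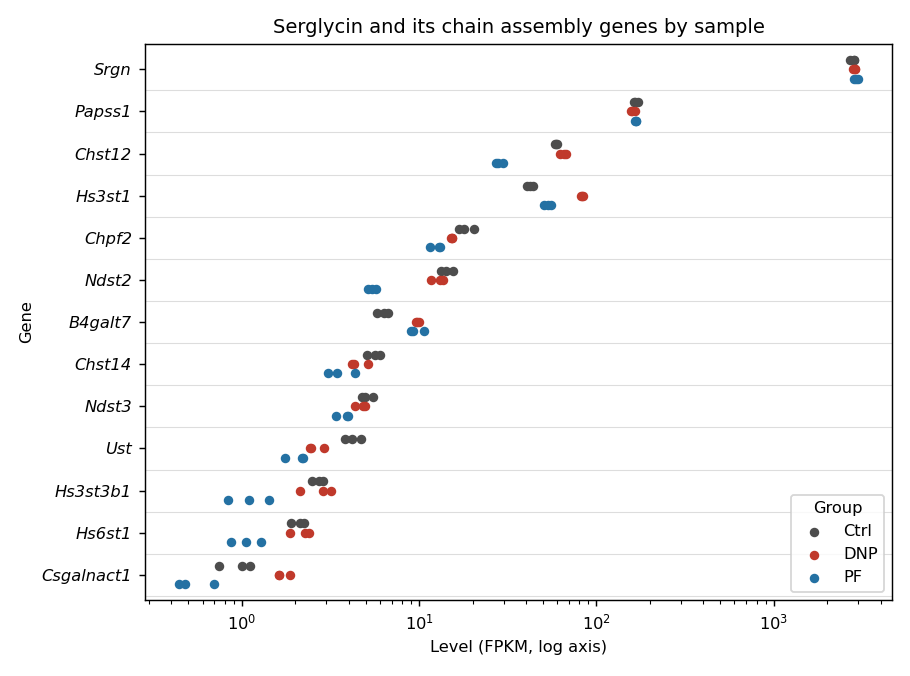
Level in FPKM (horizontal log axis) of Srgn, Ndst2, Ndst3 and the named chain assembly genes, 1 row per gene, in each Ctrl, DNP and PF sample. Points are samples. The PF points of Ndst2, Chst12, Hs6st1 and Hs3st3b1 lie to the left of all others. So do, by narrower gaps, those of Ndst3, Ust, Chpf2 and Csgalnact1. Hs3st1 is highest in DNP (83.1 FPKM), and Srgn and Papss1 form tight stacks.

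Other core proteins were scarce beside Srgn. Of 19 listed, 15 had a value and 1, Cd44, was tested. Cd44, a surface receptor for hyaluronan, was at 3.97 FPKM in Ctrl, 6.17 in DNP and 5.76 in PF and rose in DNP vs Ctrl (0.53, adjusted p = 0.00227).

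All 16 genes for the supply of amino acid and cofactor to the amine enzymes had a value, and 14 were tested. Of these, 2 rose and 2 fell in DNP vs Ctrl, 2 rose and 3 fell in PF vs DNP, and 5 rose and 5 fell in PF vs Ctrl. Over all genes 14.7% rose and 14.4% fell in DNP vs Ctrl, 18.1% and 30.7% in PF vs DNP, and 23.1% and 34.6% in PF vs Ctrl. The medians (-0.03, 0.07 and -0.04) changed sign with scaling in both PF comparisons. Slc3a2, the heavy chain of the transporter that imports tryptophan and histidine, fell from 358 FPKM in Ctrl to 288 in DNP (-0.32, adjusted p = 0.000974). Its partner Slc7a5 and the cofactor gene Gch1 were outside the rule for naming and were chosen after their values were seen. Slc7a5 was at 121, 106 and 86.4 FPKM in Ctrl, DNP and PF and was called lower in each comparison (-0.19, -0.30 and -0.49, with adjusted p of 0.00690, 9.23e-05 and 1.87e-05). Its groups stood in the same order as those of Tph1. So did the means of Slc3a2 (277 FPKM in PF) and of the MC markers Kit and Gata2, and a link to Tph1 was not tested.

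Gch1, which starts synthesis of tetrahydrobiopterin, the cofactor of Tph1, was at 22.7 FPKM in Ctrl, 31.7 in DNP and 32.1 in PF and rose in DNP vs Ctrl (0.47, adjusted p = 0.00263). Pcbd2, which recycles that cofactor, was higher in PF vs DNP by 0.68 (adjusted p = 0.00269), at 4.01 and 6.95 FPKM. Asmt, which makes melatonin from acetylated serotonin, was at 2.16 FPKM in Ctrl, 3.22 in DNP and 1.34 in PF. Its log2 fold change was 0.42 in DNP vs Ctrl (adjusted p = 0.0249) and -0.85 in PF vs DNP (adjusted p = 6.39e-05). Aanat, the listed gene for acetylating serotonin, was at most at 0.1 FPKM in any sample and was not tested.

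Of 14 genes for amine uptake and breakdown, 6 had a value and 4 were tested, of which 1 rose in PF vs DNP and 2 in PF vs Ctrl, where 18.1% and 23.1% of all genes rose. Aldh2, a mitochondrial aldehyde dehydrogenase and the most abundant, rose in PF vs DNP from 68.7 to 85.8 FPKM (0.32, adjusted p = 7.64e-05). It was at 70.6 FPKM in Ctrl and not called in DNP vs Ctrl.

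Receptors for the amines were few. Of 18 listed, 10 had a value and 2 were tested. Both rose in DNP vs Ctrl, where 14.7% of all genes rose. Both were lower in PF vs DNP, where 30.7% of all genes fell. Hrh4, the histamine receptor of immune cells, was at 8.78, 6.84 and 7.90 FPKM in Ctrl, 11.9, 12.22 and 12.89 in DNP and 8.08, 9.41 and 9.26 in PF. The DNP samples stood above all others. Its log2 fold change was 0.60 in DNP vs Ctrl (adjusted p = 0.00153) and -0.43 in PF vs DNP (adjusted p = 0.000864). Htr2a, a serotonin receptor, was at 8.72, 9.26 and 7.69 FPKM in Ctrl, 12.86, 13.63 and 10.15 in DNP and 8.10, 8.22 and 7.70 in PF. Its log2 fold change was 0.46 in DNP vs Ctrl (adjusted p = 0.0143) and -0.54 in PF vs DNP (adjusted p = 0.00161). Neither was called in PF vs Ctrl (adjusted p of 0.151 for Hrh4 and 0.365 for Htr2a), and both calls in PF vs DNP held under the 2 scalings.

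The proton pump of the granule membrane supplies the gradient that the vesicular transporters use. Of its 25 genes, 24 had a value and 21 were tested. In DNP vs Ctrl 2 rose and 7 fell, where 14.7% of all genes rose and 14.4% fell (median -0.11, against -0.01). In PF vs DNP, where 18.1% of all genes rose and 30.7% fell, 9 rose and 4 fell as deposited, 10 rose and 3 fell with median ratios and 3 rose and 7 fell with the mean of the sums, so that no direction could be read. In PF vs Ctrl 3 rose and 7 fell as deposited, where 23.1% and 34.6% of all genes did. With median ratios 6 rose and 4 fell, and with the mean of the sums 1 rose and 9 fell. Over all genes in PF vs DNP, 2758 of 10318 rose and 2600 fell with median ratios. With the mean of the sums 869 of 10320 rose and 4302 fell. In PF vs Ctrl these were 3142 of 10342 and 3012, and 1575 of 10343 and 4316. Atp6v0c, the most abundant, was at 337, 313 and 362 FPKM in Ctrl, DNP and PF (0.21 in PF vs DNP, adjusted p = 0.00243). Atp6v0d2 went the other way, from 4.33 FPKM in DNP to 2.58 in PF (-0.59, adjusted p = 0.00370).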

How the data were processed

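RNA-seq values of 3 Ctrl, 3 DNP and 3 PF samples were used, grouped by their labels. By the paper's methods and the submitters' processing notes, the authors filtered reads with SOAPnuke, mapped them with HISAT2 2.0.4 to rn6, aligned them with Bowtie2 2.2.5 and quantified genes with RSEM 1.2.12. The annotation is not given in the sources used here. The authors deposited 1 normalized value per gene and sample, read here as FPKM. Of 38490 rows, 20484 had no value. Samples were joined by gene identifier. The depth in reads is unknown. Genes that reached 1 FPKM in 3 or more of the 6 samples compared were tested on log2(FPKM + 1) with limma 3.58.1 in R 4.3.3 (lmFit, eBayes with trend), each comparison on its own 6 samples, p-values being adjusted by the Benjamini-Hochberg method and called at 0.05. The test was checked on simulated data. No count test was run.

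The genes, the related lists and the tests were chosen with earlier results of these data known. Related genes were named where called and changed by 0.5 or more on the log2 scale, or where most abundant in their list. Ndst3, Aanat, Slc7a5 and Gch1 were named outside this rule. The 3 genes of highest Pearson r were named for each of the 9 genes whose group means differed by at least 0.5. Egr1 and Il4 were named to show stimulation. Alternatives were the pseudocount, the filter, all 3 groups in 1 fit, limma without trend, 2 scalings (median ratios, and each sample to the mean of the sums), the replicate block, leaving out each sample, the PF sample of 4 h alone (in a fit of all 3 groups, which assumes that it varies like them) and a threshold of 0.01.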

Additional observations from a re-analysis of the deposited data

How the results depend on the processing

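Of 21 tests (7 genes in 3 comparisons), 14 had the same outcome (called or not, and the direction of a call) under every alternative run. The other 7 concern Hdc, Slc18a1, Slc18a2, Srgn and, in PF vs Ctrl, Ddc, and 6 of them changed with scaling. Hdc in DNP vs Ctrl was also not called by limma without trend (adjusted p = 0.0537). At an adjusted p of at most 0.01, 1469 genes were called in DNP vs Ctrl (817 higher and 652 lower) in place of 3031. Hdc was not among them. In PF vs Ctrl, 4446 genes were called at that threshold in place of 5975, and Slc18a1 was not among those.

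Same-numbered samples did not all deviate together (correlations of -0.0739 to 0.0514 in DNP vs Ctrl, -0.0822 to 0.00049 in PF vs DNP and 0.083 to 0.189 in PF vs Ctrl), so the numbers were not taken as pairs. With a replicate block, 2697, 4675 and 6009 genes were called against 3031, 5042 and 5975, and 3, 4 and 3 of the 7 genes, as without it. Tests that need counts were not run, because only FPKM was at hand. Depth could not be set against any value.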
